A study of Mus musculus with 140 samples.

Results

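Livers of Per1,2-/- mice were compared between 2 sets of time points in antiphase on a 16-hour cycle. The first set held the 11 libraries of CT8, CT24 and CT40, and the second the 12 libraries of CT0, CT16 and CT32, so that 23 of the 140 libraries of the series entered the comparison. CT is circadian time in hours, counted from the start of the first subjective day in constant darkness. All 23 libraries came from 3-month-old male C57BL/6 mice that lacked Per1 and Per2 and were fed ad libitum, kept first in 12-hour light and 12-hour dark cycles and then in constant darkness. The mice carry the deletions in every tissue, so that the liver was not the only clock affected. WT and Bmal1-/- livers of the same age and hours, 24 and 23 libraries, were sampled in the same way and are used below only beside the Per1,2-/- values. Each time point had 4 libraries, lettered A to D, apart from CT8 with 3. The study names the mice per time point for its immunoblots and not for these libraries, so p-values measure the spread between libraries, part of which may be technical.

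PER1 and PER2 form, with the cryptochromes, the negative limb of the circadian clock: they repress the CLOCK and BMAL1 complex that drives their own transcription. The liver ties this clock to feeding, and many of its transcripts for mitochondrial respiration, amino acid breakdown and secreted proteins vary over the day in wild-type animals. Rhythms shorter than a day, called ultradian, have also been described in liver. The study asked whether the activity of AKT, a kinase downstream of insulin, and the transcripts of the liver cycle in mice without PER1 and PER2. Within each set the time points lie 16 hours apart, and neighbouring time points of the 2 sets lie 8 hours apart. Both sets fall on the same 3 phases of a 24-hour day, so a 24-hour rhythm adds nothing to the difference of their means. The mean hour of CT8, CT24 and CT40 is 24 and that of CT0, CT16 and CT32 is 16, so a steady drift over the 2 days does add to it.

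Expression was measured by bulk MARS-seq, which reads the 3′ ends of transcripts and collapses copies by their molecular barcodes, so a count stands for 1 captured transcript. The totals were 1442278 to 4999721 counts per library at CT8, CT24 and CT40 (median 3881792) and 1676362 to 5643470 at CT0, CT16 and CT32 (median 3406386). Values below are CPM, counts scaled to a common library total and adjusted between libraries by the TMM method. The 15 hepatocyte markers, led by Alb, Apoa1 and Ttr, summed to 104001 to 155564 CPM at CT8, CT24 and CT40, against 97803 to 162599 CPM at CT0, CT16 and CT32. The clock transcripts Arntl (encoding BMAL1), Nr1d1 and Dbp varied 2.19-, 1.58- and 1.62-fold between the lowest and highest of the 12 time point means in Per1,2-/- livers, against 22.6-, 64.1- and 82.4-fold in WT livers. Per1 and Per2 themselves still gave counts (medians 10.02 and 19.7 CPM in Per1,2-/- livers), and a 3′ tag outside a deleted stretch checks nothing.

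Of the 23 libraries, 3 stood apart. Library C of CT8 had 96.5 CPM of Mup3, a male-biased major urinary protein, against 1262 to 5794 CPM in the other libraries. Its 37 male-biased genes summed to 1881 CPM, the next lowest library to 4809.7 CPM. It also had the highest Fgf21, a hormone secreted by the liver in fasting and stress, with 55 CPM against at most 24.8 CPM elsewhere. Its Y-linked Eif2s3y, at 8.97 CPM, lay within the range of the other libraries. Library A of CT32 had 4230.3 CPM of 13 Kupffer cell and macrophage markers together, against at most 1467 CPM in any other library. Library A of CT16 had 23871 CPM of Saa1, an acute phase protein made in inflammation, against at most 5034 CPM elsewhere. Results that rest on these libraries are given with and without them.

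No gene differed between the 2 sets at an adjusted p under 0.05, in either direction (0% of the 9258 genes tested, edgeR's quasi-likelihood test with Benjamini-Hochberg adjustment). The lowest adjusted p was 0.0675, while 628 genes were higher and 665 lower at CT8, CT24 and CT40 at an unadjusted p under 0.05, and DESeq2 passed 74 higher and 26 lower genes at 0.05. At an adjusted p under 0.2, the threshold that the study uses for rhythms, 192 genes were higher (2.07% of those tested) and 144 lower (1.56%). Calls below refer to this looser threshold, at which up to 1 in 5 of the genes listed would be expected to be false. Single libraries decided these counts. Without library C of CT8, edgeR passed 131 higher genes (1.41%) and 62 lower genes (0.67%) at 0.05, and 576 and 552 at 0.2. Without library A of CT16 the counts at 0.05 were 16 higher and 5 lower, and without library C of CT32 they were 26 and 12. Without library A of CT32 they stayed at 0. At 0.2 the counts over all genes were 333 higher and 316 lower without library A of CT16. Without library A of CT32 they were 230 and 200.

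**Figure D1:**
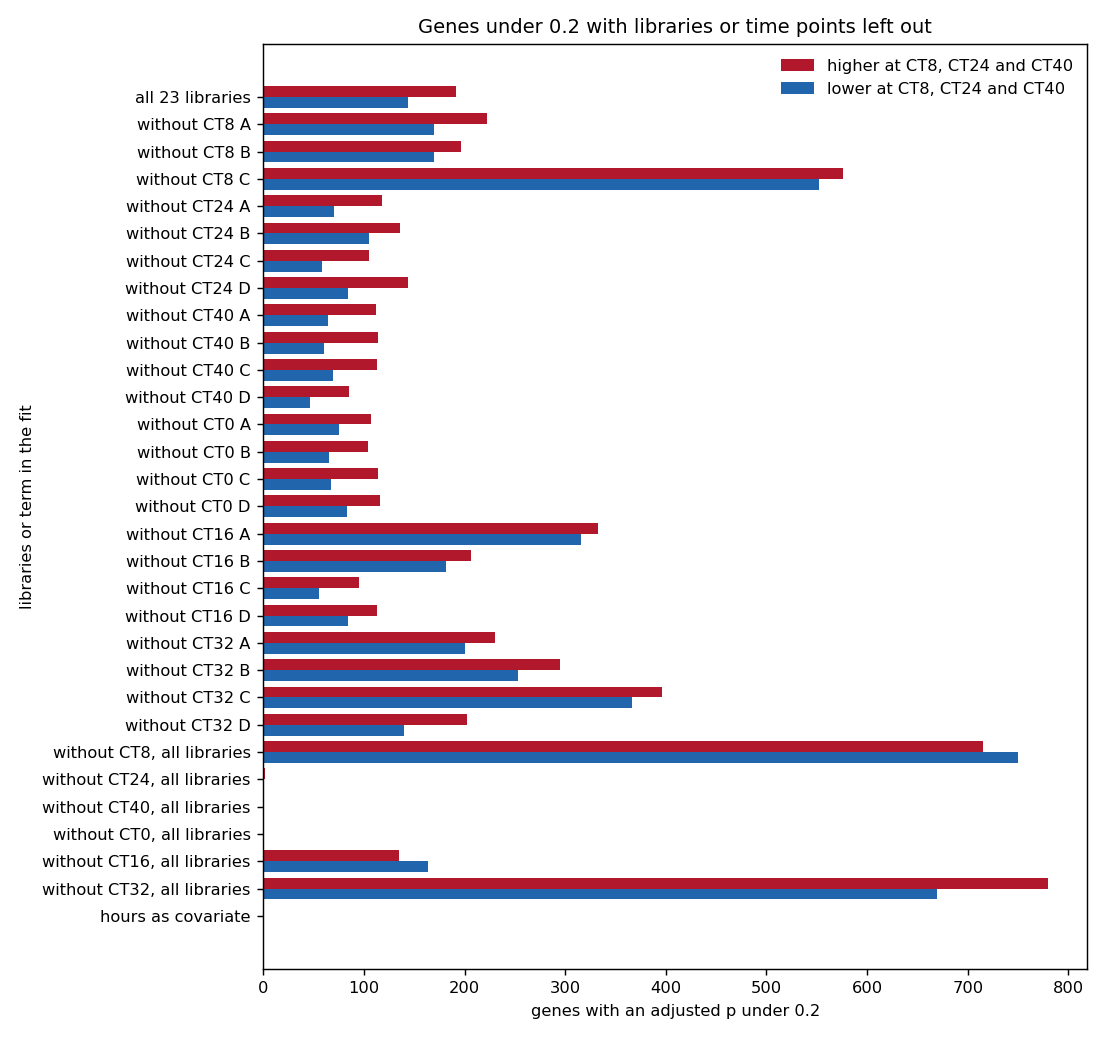
Number of genes at an adjusted p under 0.2 (edgeR) in the comparison of CT8, CT24 and CT40 with CT0, CT16 and CT32, counted with all 23 libraries and with a time point or library left out, higher genes above lower genes. The counts run from 0 without CT40 to 780 higher genes without CT32, and 576 higher and 552 lower genes without library C of CT8.

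The counts also depended on which time points were kept. At an adjusted p under 0.2, 715 higher and 750 lower genes were counted without CT8, and 780 and 669 without CT32. In contrast, 1 and 0 were counted without CT0, 2 and 0 without CT24, and 0 and 0 without CT40, while 135 and 164 were counted without CT16. The mean hours of the 2 sets differ by 16 without CT8 or CT32, by 8 without CT16 or CT24, and by 0 without CT0 or CT40. Without both CT8 and CT32, the 2 times left in each set lie on the same phases of the day exactly 24 hours apart (CT24 against CT0 and CT40 against CT16), and edgeR passed 684 higher and 494 lower genes at 0.05. With the hour since CT0 as a linear term in the model, no gene passed 0.2 (lowest adjusted p 0.220). The hour and the set are correlated, and 185 of the 192 higher and 142 of the 144 lower genes still had an unadjusted p under 0.05 in that model, against 944 of all 9258 genes. The 192 and 144 genes were chosen for the same difference in the same libraries, so their larger share is a description. None of the 336 genes passed 0.2 without each of the 6 time points in turn, and the most any gene reached was 4 of the 6.

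Selenbp2 had the lowest p of all genes tested. It encodes a selenium-binding protein that is more abundant in male than in female mouse liver, and its near-identical neighbour Selenbp1 may share its reads, so its value is uncertain. The gene lies on chromosome 3 of GRCm38, 94693573 to 94704406. It ranged over 6.54 to 727 CPM (median 139.6) at CT8, CT24 and CT40, against 23 to 83.5 CPM (median 49) at CT0, CT16 and CT32. The time point means were 75.4 ± 60.1, 277 ± 280.3 and 412 ± 243 CPM at CT8, CT24 and CT40, against 39.8 ± 14.9, 59.8 ± 23.1 and 49.9 ± 7.59 CPM at CT0, CT16 and CT32 (SD, 3 libraries at CT8 and 4 at each other time). In 9 of the 11 libraries Selenbp2 exceeded all 12 of the other set, the exceptions being library C of CT8 (6.54 CPM) and library B of CT24 (29.96 CPM). The log2 difference was 2.44 ± 0.47 (SE), a 5.44-fold difference (adjusted p = 0.0675, edgeR), and 2.58 without library C of CT8 (adjusted p = 0.00154, edgeR). The CT40 mean exceeded the CT24 mean and that the CT8 mean, which lay below the 130.2 CPM of CT12. On the log2 scale the CT8 mean of Selenbp2 was also below that of CT16, by -0.33 (CT8 minus CT16).

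Fhit, which encodes a hydrolase of diadenosine triphosphate, lies on chromosome 14 of GRCm38, 9550092 to 11162061. It ranged over 6.96 to 15 CPM (median 10.2) at CT8, CT24 and CT40, against 3.9 to 9.53 CPM (median 5.69) at CT0, CT16 and CT32. Its means were 9.49 ± 3.2, 11.8 ± 2.35 and 9.98 ± 0.787 CPM at CT8, CT24 and CT40, against 6.12 ± 2.09, 6.7 ± 1.99 and 5.71 ± 1.52 CPM at CT0, CT16 and CT32, so all 5 steps between neighbouring time points pointed the same way, and 7 of the 11 libraries exceeded all 12 of the other set. The log2 difference was 0.76 ± 0.15 (adjusted p = 0.0675, edgeR), and 0.78 with the hour in the model. Upp2, encoding a uridine phosphorylase that breaks down uridine, lies on chromosome 2 of GRCm38, 58566317 to 58795846, and ranged over 53.9 to 135 CPM (median 105) at CT8, CT24 and CT40, against 34.4 to 89.96 CPM (median 54.1) at CT0, CT16 and CT32. Its means were 75.1 ± 20.2, 115 ± 15.3 and 104 ± 10.3 CPM at CT8, CT24 and CT40, against 48 ± 8.16, 62.6 ± 27.7 and 58.2 ± 18.2 CPM at CT0, CT16 and CT32. The lowest Upp2 mean of CT8, CT24 and CT40 was thus above the highest of CT0, CT16 and CT32, and 8 of 11 libraries exceeded all 12 of the other set. Library A of CT8, at 53.9 CPM, was the lowest of the 11. The log2 difference of Upp2 was 0.83 ± 0.16 (adjusted p = 0.0675, edgeR).

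Cela1, which encodes an elastase of the chymotrypsin family, lies on chromosome 15 of GRCm38, 100674422 to 100687920. Its libraries ranged over 27.1 to 57.6 CPM (median 44.1) at CT8, CT24 and CT40, against 18.2 to 42.3 CPM (median 25.5) at CT0, CT16 and CT32, with means of 33.4 ± 5.54, 48.7 ± 9.8 and 45.2 ± 4.66 CPM at CT8, CT24 and CT40, against 28.6 ± 3.5, 27.4 ± 10.1 and 27.1 ± 6.83 CPM at CT0, CT16 and CT32. The 3 means of CT0, CT16 and CT32 were nearly equal, and CT8 was closer to them than were CT24 and CT40. The log2 difference was 0.65 ± 0.13 (adjusted p = 0.0777, edgeR). Snrpg encodes a core protein of the small nuclear ribonucleoproteins of the spliceosome and lies on chromosome 6 of GRCm38, 86371540 to 86378902. Its libraries held 31.2 to 44.3 CPM (median 39.3) at CT8, CT24 and CT40, against 21.7 to 37.3 CPM (median 29.4) at CT0, CT16 and CT32. The Snrpg means were 36.4 ± 3.31, 38.7 ± 5.54 and 39.97 ± 1.37 CPM at CT8, CT24 and CT40, against 28.8 ± 5.5, 28.7 ± 6.56 and 29.7 ± 2.62 CPM at CT0, CT16 and CT32, an even alternation between about the same low and high levels, with a log2 difference of 0.41 ± 0.08 (adjusted p = 0.0814, edgeR). Fam53a, on chromosome 5 of GRCm38, 33600351 to 33629675, had 36.5 to 46.1 CPM (median 39.7) at CT8, CT24 and CT40, against 27.1 to 37.2 CPM (median 33.5) at CT0, CT16 and CT32. Its means were 39.9 ± 2.22, 40.3 ± 4.07 and 41.2 ± 1.54 CPM at CT8, CT24 and CT40, against 31.6 ± 4.15, 32.8 ± 2.33 and 35.1 ± 3.32 CPM at CT0, CT16 and CT32. In 10 of its 11 libraries at CT8, CT24 and CT40 Fam53a exceeded all 12 of the other set, for a log2 difference of 0.29 ± 0.06 (adjusted p = 0.0814, edgeR).

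**Figure D2:**
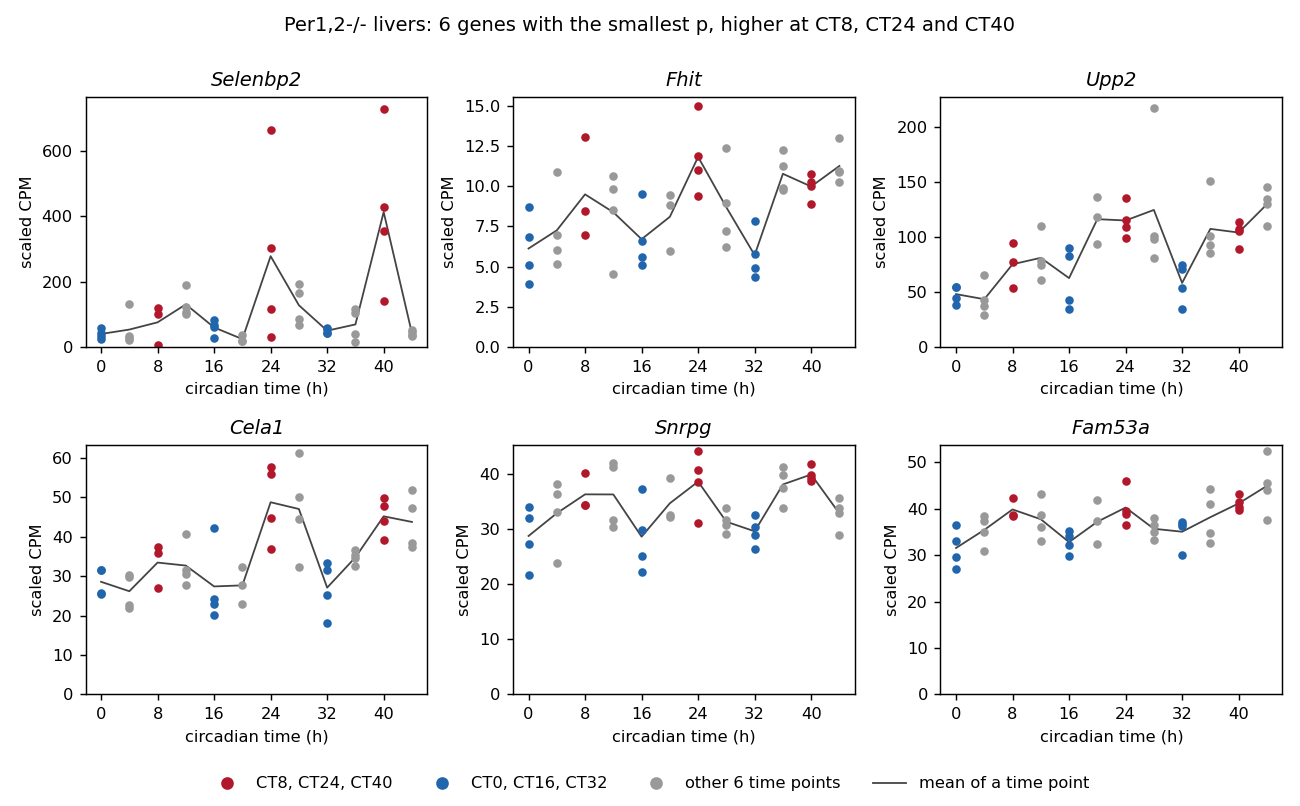
CPM of Selenbp2, Fhit, Upp2, Cela1, Snrpg and Fam53a in each Per1,2-/- library against circadian time in hours, all 12 time points, with CT8, CT24 and CT40, CT0, CT16 and CT32, and the other 6 times marked apart; lines join the means. The 3 means of Snrpg at CT8, CT24 and CT40 lie between 36.4 and 39.97 CPM, against 28.7 to 29.7 CPM at CT0, CT16 and CT32, while Selenbp2 reaches 412 CPM at CT40, and Fam53a is highest at CT44 (44.9 CPM), outside both sets.

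The 6 time points that entered neither set lie 4 hours to either side and showed whether a gene passed through intermediate levels. Upp2 had 43.4, 81, 116, 124, 107 and 129.6 CPM at CT4, CT12, CT20, CT28, CT36 and CT44. Cela1 had 26.2, 32.7, 27.7, 47, 34.8 and 43.7 CPM at CT4, CT12, CT20, CT28, CT36 and CT44. Fam53a had 35.5, 37.8, 37.2, 35.7, 38.2 and 44.9 CPM at CT4, CT12, CT20, CT28, CT36 and CT44. Over the genes at an adjusted p under 0.2, the mean of those 6 time points lay between the means of the 2 sets for 189 of the 192 higher and 134 of the 144 lower genes, against 4776 of all 9258 genes (51.6%). The genes were chosen for the difference between the sets, so these counts are a description.

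Promoter sequences of the leading higher genes were read from RefSeq's GRCm38.p6 annotation, 250 bases before to 50 after the start site, each written 5′ to 3′ on the gene's own strand. They are shown because transcripts that move together invite a look at what their promoters share. Matches to 8 motifs, searched on both strands, are in capitals. The E-box of clock factors was searched as CACGTG and the forkhead motif of FOXO factors as GTAAACA. Motifs common in promoters of mitochondrial genes were the core of the NRF1 site, searched as GCGCATGC, the ETS motif as CCGGAAG and the YY1 motif as AAGATGGC. The ERR alpha motif of a nuclear receptor for oxidative genes was searched as TCAAGGTCA and its inner stretch as AAGGTCA, so every match of the first is also one of the second. The TATA box was searched as TATAAA. Where a gene had several starts the window farthest upstream is given. Those of Fhit and Upp2 held none of the 8, and those of Selenbp2 and Cela1 follow.
Selenbp2 (chr3:94693323-94693622, plus strand): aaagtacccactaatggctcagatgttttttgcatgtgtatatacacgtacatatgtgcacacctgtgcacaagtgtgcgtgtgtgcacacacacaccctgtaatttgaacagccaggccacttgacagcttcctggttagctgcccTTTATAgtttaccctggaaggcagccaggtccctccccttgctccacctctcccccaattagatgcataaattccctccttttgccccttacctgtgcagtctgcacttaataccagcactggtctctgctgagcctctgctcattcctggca
Cela1 (chr15:100687871-100688170, minus strand): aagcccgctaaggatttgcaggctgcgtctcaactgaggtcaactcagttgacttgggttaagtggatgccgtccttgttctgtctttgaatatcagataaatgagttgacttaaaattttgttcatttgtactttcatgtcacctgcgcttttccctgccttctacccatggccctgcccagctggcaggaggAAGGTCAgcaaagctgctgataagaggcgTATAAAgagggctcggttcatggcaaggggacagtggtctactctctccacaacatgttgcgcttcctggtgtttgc
Selenbp2 held a TATA box match on the opposite strand (TTTATA), and Cela1 held AAGGTCA followed by a TATA box match. Of the 154 higher genes with a window, 19 held AAGGTCA in at least 1 of their windows (12.3%), against 4.2% of the 7472 tested genes with a window and 4.72% of all 32851 windows. The E-box was in 14 of the 154 (9.09%), against 12.5% of the tested genes and 7.15% of all windows. TCAAGGTCA was in 4 of the 154 (2.6%), against 0.321% of the tested genes and 0.423% of all windows. The other shares of higher against tested genes were 1.95% and 3.29% for the forkhead motif, 7.14% and 6.16% for NRF1, 21.4% and 21.7% for ETS, 2.6% and 5.81% for YY1 and 11% and 9.03% for the TATA box. Of all windows, 3.65%, 2.71%, 8.86%, 2.75% and 13.6% held these in the same order. The 4 genes with TCAAGGTCA were Atp5g3, Bhmt, Fam131c and Fancl, and the windows of the first 2, chosen after their values were seen, are given as examples of the match on either strand.
Atp5g3 (chr2:73911277-73911576, minus strand): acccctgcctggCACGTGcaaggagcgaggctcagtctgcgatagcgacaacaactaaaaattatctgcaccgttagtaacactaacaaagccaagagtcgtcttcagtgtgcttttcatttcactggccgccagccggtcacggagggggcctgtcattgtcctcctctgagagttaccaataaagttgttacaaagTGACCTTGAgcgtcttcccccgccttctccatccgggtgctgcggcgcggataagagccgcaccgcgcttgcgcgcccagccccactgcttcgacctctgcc
Bhmt (chr13:93637709-93638008, minus strand): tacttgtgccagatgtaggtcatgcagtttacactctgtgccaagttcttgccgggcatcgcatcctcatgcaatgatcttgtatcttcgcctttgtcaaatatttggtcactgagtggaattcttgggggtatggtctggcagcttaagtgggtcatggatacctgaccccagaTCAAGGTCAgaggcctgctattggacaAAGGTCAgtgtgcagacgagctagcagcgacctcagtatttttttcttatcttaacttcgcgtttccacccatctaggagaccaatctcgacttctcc
Atp5g3, a membrane subunit of ATP synthase whose relatives may share its reads, held the match as TGACCTTGA besides an E-box (log2 difference 0.32 ± 0.07, adjusted p = 0.0814, edgeR). Bhmt, the betaine-homocysteine methyltransferase of methionine metabolism, held it as written, with another AAGGTCA downstream (log2 difference 0.82 ± 0.25, adjusted p = 0.155, edgeR). These matches describe the letters in the windows and not sites that a factor was shown to use. A window was found for 77.8% of the lower genes, against 80.2% of the higher genes. Of the 112 lower genes with a window, 8 held AAGGTCA (7.14%) and 2 held TCAAGGTCA (1.79%), so neither match was particular to the higher genes. The other shares of the lower genes were 8.04% for the E-box, 1.79% for the forkhead motif, 6.25% for NRF1, 16.1% for ETS, 8.93% for YY1 and 7.14% for the TATA box.

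Scnm1, which encodes a protein of the spliceosome, had the lowest p among lower genes and lies on chromosome 3 of GRCm38, 95129719 to 95134050. It ranged over 7.41 to 15.5 CPM (median 11.3) at CT8, CT24 and CT40, against 13 to 18.8 CPM (median 15.3) at CT0, CT16 and CT32. The means were 13.3 ± 1.87, 11.5 ± 1.99 and 9.56 ± 1.62 CPM at CT8, CT24 and CT40, against 14.9 ± 1.83, 14.9 ± 0.51 and 17 ± 1.66 CPM at CT0, CT16 and CT32, and 8 of the 11 libraries lay below all 12 of the other set. The log2 difference was -0.47 ± 0.10 (adjusted p = 0.0814, edgeR). Gimap9, a GTPase of a family expressed mainly in lymphocytes, lies on chromosome 6 of GRCm38, 48676121 to 48679116. It had 3.77 to 8.14 CPM (median 6.29) at CT8, CT24 and CT40, against 6.7 to 16.4 CPM (median 11) at CT0, CT16 and CT32. The Gimap9 means were 6.57 ± 1.5, 6.86 ± 0.991 and 5.83 ± 1.77 CPM at CT8, CT24 and CT40, against 13.1 ± 2.33, 9.85 ± 1.78 and 8.56 ± 2.58 CPM at CT0, CT16 and CT32, with a log2 difference of -0.68 ± 0.15 (adjusted p = 0.0814, edgeR). The level of Gimap9 at CT0, CT16 and CT32 declined over the 2 days, so the gap was widest at its start. Pim1, a serine/threonine kinase induced by cytokines, lies on chromosome 17 of GRCm38, 29490785 to 29496111 and ranged over 2.76 to 10.5 CPM (median 4.83) at CT8, CT24 and CT40, against 6.26 to 20.5 CPM (median 9.37) at CT0, CT16 and CT32. The highest Pim1 value came from library A of CT32 (20.5 CPM), the library rich in Kupffer cell markers. Its means were 8.3 ± 2.04, 4.45 ± 0.735 and 4.81 ± 1.79 CPM at CT8, CT24 and CT40, against 9.85 ± 2.35, 9.77 ± 3.76 and 11.7 ± 5.93 CPM at CT0, CT16 and CT32, and its log2 difference was -0.91 ± 0.21 (adjusted p = 0.0814, edgeR), or -0.78 without that library.

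Dysf encodes dysferlin, a protein of membrane repair, and lies on chromosome 6 of GRCm38, 84008361 to 84211060. It had 1.74 to 3.93 CPM (median 2.62) at CT8, CT24 and CT40, against 2.18 to 6.94 CPM (median 4.79) at CT0, CT16 and CT32. The Dysf means were 3.04 ± 0.453, 2.89 ± 0.753 and 2.35 ± 0.672 CPM at CT8, CT24 and CT40, against 5.93 ± 0.993, 4.52 ± 1.09 and 4.02 ± 2.04 CPM at CT0, CT16 and CT32, with a log2 difference of -0.80 ± 0.18 (adjusted p = 0.0814, edgeR). Dysf rested on 4 to 26 counts per library. Pisd-ps1, a pseudogene of phosphatidylserine decarboxylase whose parent may share its reads, lies on chromosome 11 of GRCm38, 3124002 to 3131945. Its libraries had 43.7 to 58.7 CPM (median 52.8) at CT8, CT24 and CT40, against 46 to 75.1 CPM (median 67) at CT0, CT16 and CT32. The Pisd-ps1 means were 47.4 ± 2.89, 53.1 ± 6.44 and 54.5 ± 2.93 CPM at CT8, CT24 and CT40, against 68.4 ± 3.96, 66.9 ± 8.65 and 62.1 ± 12.7 CPM at CT0, CT16 and CT32 (log2 difference -0.33 ± 0.08, adjusted p = 0.0814, edgeR). The sets overlapped in all but 2 of the 11 Pisd-ps1 libraries. Map2k7, the kinase that activates JNK, lies on chromosome 8 of GRCm38, 4238740 to 4247897, and had 22.3 to 32.5 CPM (median 26.5) at CT8, CT24 and CT40, against 26.2 to 48.5 CPM (median 36.4) at CT0, CT16 and CT32. Its means were 29.3 ± 2.97, 26.8 ± 4.07 and 25.2 ± 2.21 CPM at CT8, CT24 and CT40, against 39.96 ± 5.71, 34 ± 6.29 and 32.7 ± 4.999 CPM at CT0, CT16 and CT32. Its log2 difference was -0.39 ± 0.09 (adjusted p = 0.0814, edgeR), and its level declined over the 2 days within each set.

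**Figure D3:**
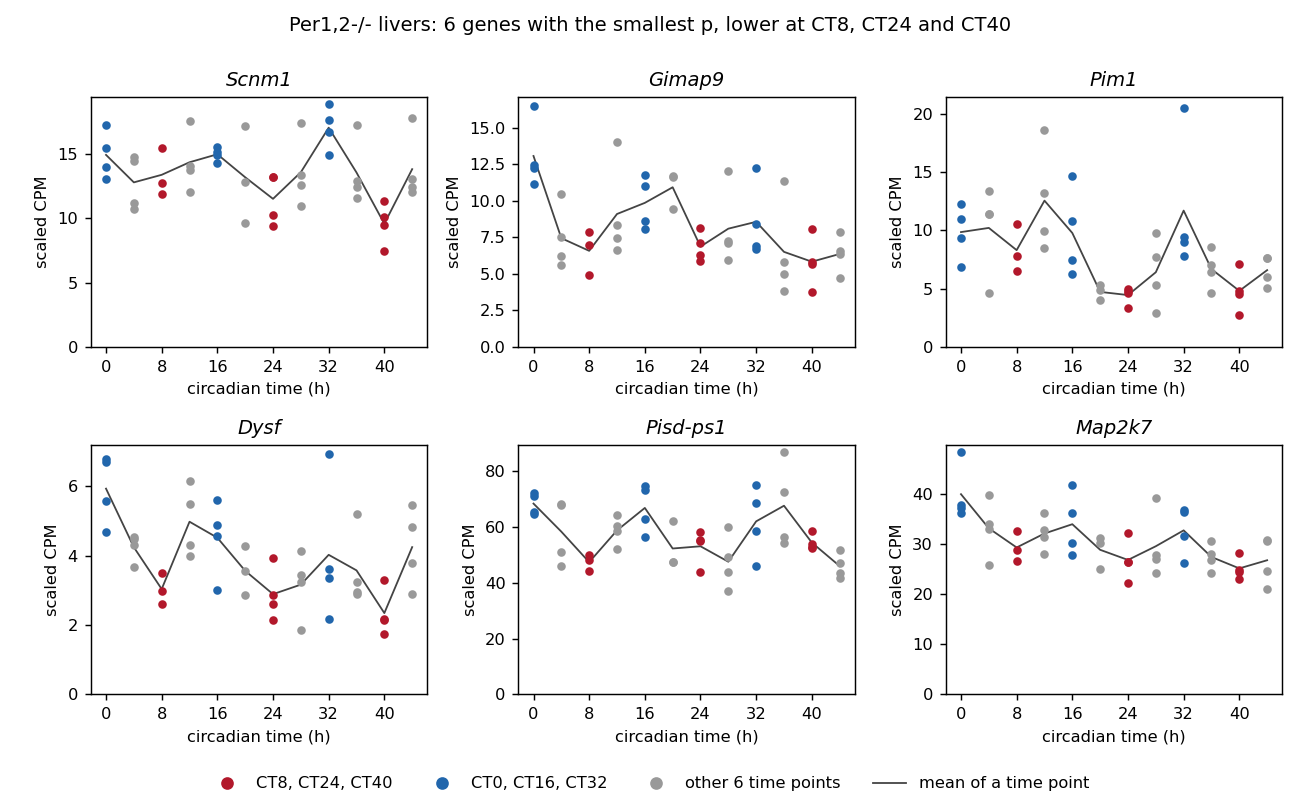
CPM of Scnm1, Gimap9, Pim1, Dysf, Pisd-ps1 and Map2k7 in each Per1,2-/- library against circadian time in hours, all 12 time points, with CT8, CT24 and CT40, CT0, CT16 and CT32, and the other 6 times marked apart; lines join the means. In each panel the 3 means of CT8, CT24 and CT40 lie below the 3 means of CT0, CT16 and CT32.

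The remaining lower genes among the 10 with the smallest p included members of the innate immune response. Icam1, the adhesion molecule through which leukocytes bind endothelium, had means of 26.2 ± 7.94, 18 ± 3.4 and 14.3 ± 1.33 CPM at CT8, CT24 and CT40, against 32.1 ± 2.76, 34.8 ± 8.64 and 38.9 ± 32.5 CPM at CT0, CT16 and CT32 (log2 difference -0.90 ± 0.21, adjusted p = 0.0814, edgeR). Without library A of CT32, where it reached 87.3 CPM, the difference of Icam1 was -0.71 (adjusted p = 0.073, edgeR). Cd14, the co-receptor for bacterial lipopolysaccharide, had means of 5.74 ± 1.31, 5.46 ± 1.09 and 4.7 ± 1.78 CPM at CT8, CT24 and CT40, against 10.4 ± 4.01, 17.7 ± 15.1 and 10.5 ± 9.02 CPM at CT0, CT16 and CT32 (log2 difference -1.31 ± 0.31, adjusted p = 0.0814, edgeR). Cd14 reached 40.2 CPM in library A of CT16 and 23.4 CPM in library A of CT32, and its difference was -0.98 without the first and -1.22 without the second. Snrnp70, the protein of the U1 small nuclear ribonucleoprotein, and Anpep, an aminopeptidase of the bile canaliculus, differed by -0.36 ± 0.09 and -0.34 ± 0.08 on the log2 scale (adjusted p = 0.0814 for both, edgeR). Snrnp70 lay below all 12 libraries of CT0, CT16 and CT32 in 9 of 11 libraries, and Anpep in 8 of 11, while 1 Anpep library lay above them. Both moved opposite to Snrpg, although Snrnp70 belongs to the same particles.

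A repeated swing was defined as 3 time point means of log2 CPM that all lay beyond those of the other set. Over all genes tested, 4.99% were above and 6.22% below in this sense, and of the genes at an adjusted p under 0.2 it held for 123 of the 192 higher (64.1%) and 105 of the 144 lower genes (72.9%). The test chose these genes for a difference between the same means, so their larger share is a description. The other genes overlapped at 1 or more of the 6 time point means. A gene was defined as resting on a single time point where leaving out 1 of the 6 ended its call. It was defined as a drift where its call ended with the hour in the model. All 192 higher and 144 lower genes met both of these definitions, those with a repeated swing included. The median log2 difference was 0.32 over the higher genes, with steps of 0.27 (CT8 minus CT0), 0.25 (CT8 minus CT16), 0.37 (CT24 minus CT16), 0.23 (CT24 minus CT32) and 0.29 (CT40 minus CT32). Over the lower genes it was -0.45, with steps of -0.37, -0.33, -0.36, -0.32 and -0.39 in the same order. The median step thus had the same sign 5 times in a row in both groups of genes. The steps use the means for which the genes were chosen, so their signs are a description too. Most differences were small, and 11 higher and 14 lower genes exceeded 1 on the log2 scale.

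A drift over the 2 days was present beside the swing. The mean of the second 24 hours, over all 12 time points, exceeded that of the first for 183 of the 192 higher genes, against 10 of the 144 lower genes and 4255 of all 9258. The median change from the first to the second 24 hours was 0.21 for the higher and -0.18 for the lower genes. The mean hours of the sets differ, so the choice of genes favoured these directions. With the hour in the model the median difference between the sets was 0.28 and -0.40, against 0.32 and -0.45 without it. The difference thus kept most of its size, and no gene kept an adjusted p under 0.2.

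Oxidative metabolism supplied many of the higher genes. Of 35 tested subunits and assembly factors of respiratory complex I, which passes electrons from NADH to ubiquinone, 7 were higher and 0 lower at an adjusted p under 0.2 (median log2 difference 0.12, 27 above 0). Of 39 genes of complexes II to V, 8 were higher and 0 lower (median 0.15, 37 above 0), and over all 9258 genes the median was -0.016 and 4292 were above 0. Ndufb6, an accessory subunit of complex I, had means of 391, 391 and 404 CPM at CT8, CT24 and CT40, against 315, 306 and 352 CPM at CT0, CT16 and CT32, and 10 of its 11 libraries exceeded all 12 of the other set (log2 difference 0.29 ± 0.06, adjusted p = 0.0814, edgeR). Atp5a1, the alpha subunit of ATP synthase, had means of 1148, 1159 and 1213 CPM at CT8, CT24 and CT40, against 920.1, 898 and 1067 CPM at CT0, CT16 and CT32 (log2 difference 0.29 ± 0.06, adjusted p = 0.0814, edgeR). CT32 was the highest of the low means for both. Cyc1 (cytochrome c1) and Cox5a (a cytochrome c oxidase subunit) differed by 0.30 ± 0.07 and 0.35 ± 0.08 on the log2 scale (adjusted p = 0.0814 for both, edgeR). Without library C of CT8, 131 of all 9258 genes were higher at 0.05 and 576 at 0.2. Among them were 3 complex I genes and 6 genes of complexes II to V at 0.05, and 12 and 10 at 0.2. Without library A of CT32, 5 and 8 were higher at 0.2, when 230 of all 9258 genes were higher.

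The pyruvate dehydrogenase complex and the tricarboxylic acid cycle, which feed the respiratory chain, gave 10 higher and 0 lower genes of 28 tested (median 0.23). Pdhb, the E1 beta subunit of pyruvate dehydrogenase, ranged over 103 to 157 CPM (median 131) at CT8, CT24 and CT40, against 78.3 to 123 CPM (median 87.9) at CT0, CT16 and CT32. Its means were 125 ± 28, 123 ± 20.2 and 132 ± 7.44 CPM at CT8, CT24 and CT40, against 84.8 ± 6.96, 83.1 ± 6.72 and 113 ± 12.8 CPM at CT0, CT16 and CT32, and its log2 difference was 0.44 ± 0.09 (adjusted p = 0.0814, edgeR). Got1, the cytosolic aspartate aminotransferase of the malate-aspartate shuttle, had means of 184 ± 123, 191 ± 14.7 and 163 ± 32 CPM at CT8, CT24 and CT40, against 111 ± 22.2, 119.9 ± 43.9 and 98.8 ± 16 CPM at CT0, CT16 and CT32. With library C of CT8 included, the Got1 means of the 2 sets alternated without an upward drift. That library had 325 CPM, against 107 and 118 CPM in libraries A and B of CT8, both below the CT16 mean. The log2 difference of Got1 was 0.71 ± 0.16, against 0.76 with the hour in the model (adjusted p = 0.0814 without it, edgeR). Without library C of CT8 it was 0.58. Mdh1, the malate dehydrogenase of the same shuttle, differed by 0.36 ± 0.10 but was higher at later times, with 1022 CPM at CT8 and 1126 CPM at CT32. Of 66 genes of the mitochondrial ribosome, which translates the proteins encoded in mitochondria, 6 were higher and 0 lower (median 0.09, 54 above 0), Mrps28 by 0.26 ± 0.06 (adjusted p = 0.0814, edgeR). The mitochondrial chaperonin pair Hspe1 and Hspd1 differed by 0.29 ± 0.07 and 0.20 ± 0.07 (adjusted p = 0.0814 and 0.168, edgeR), the 2 of 20 heat shock chaperones called. There were, without library C of CT8, 13 higher genes and 1 lower among the 28 of pyruvate dehydrogenase and the cycle, 14 higher among the 66 of the mitochondrial ribosome and 3 higher chaperones. Of all 9258 genes, 576 were then higher and 552 lower. The mitochondrial ribosome had 10 higher genes without library A of CT16, and without library A of CT32 it had 9. Of all 9258 genes, 333 and 230 were then higher.

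**Figure D4:**
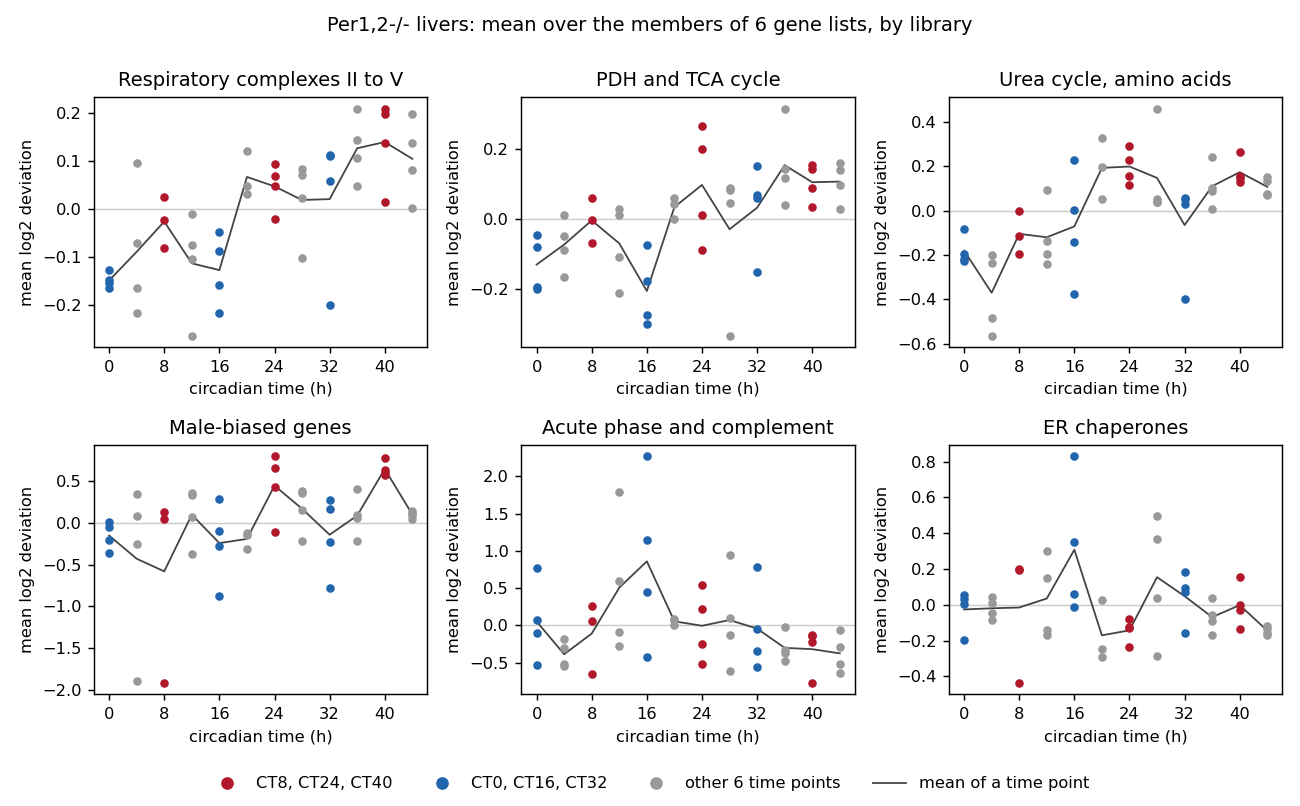
Mean over the members of 6 gene lists of log2(CPM + 1), as the difference from each gene's mean over all 46 Per1,2-/- libraries, in each library against circadian time in hours; lines join the time point means. Complexes II to V stood at -0.03, 0.05 and 0.14 at CT8, CT24 and CT40, against -0.15, -0.13 and 0.02 at CT0, CT16 and CT32. The CT8 mean lay below the CT32 mean, so the list average was not a repeated swing by the definition above. At CT32 library A stood at -0.20, and libraries B, C and D at 0.11, 0.11 and 0.06.

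Peroxisomes and the urea cycle showed the same direction. Of 29 peroxisomal genes, 5 were higher and 0 lower (median 0.14), among them Nudt7, a peroxisomal coenzyme A hydrolase. Nudt7 had means of 452 ± 351, 926 ± 136 and 1056 ± 88.8 CPM at CT8, CT24 and CT40, against 333 ± 58.7, 318 ± 94.5 and 556 ± 279 CPM at CT0, CT16 and CT32, with CT8 below CT32, so its log2 difference of 1.07 ± 0.30 (adjusted p = 0.114, edgeR) was not a repeated swing by the definition above. Of 42 genes for making urea and for amino acid breakdown, 10 were higher and 1 lower (median 0.24, 37 above 0). Ass1, the argininosuccinate synthase of the urea cycle, had means of 90.7 ± 33.8, 117 ± 22 and 90.7 ± 4.82 CPM at CT8, CT24 and CT40, against 67.1 ± 3.88, 62.8 ± 20.9 and 69.4 ± 20.05 CPM at CT0, CT16 and CT32 (log2 difference 0.60 ± 0.14, adjusted p = 0.0814, edgeR). Cps1, the carbamoyl phosphate synthetase that starts the cycle, had means of 873, 1053 and 952 CPM at CT8, CT24 and CT40, against 633, 815 and 549 CPM at CT0, CT16 and CT32 (log2 difference 0.54 ± 0.16, adjusted p = 0.126, edgeR). Slc25a15, which carries ornithine into mitochondria, and Cth, which cleaves cystathionine, differed by 0.37 ± 0.09 and 0.41 ± 0.11 (adjusted p = 0.0814 and 0.11, edgeR). In all 4 the 3 means of CT8, CT24 and CT40 lay above the other 3 with library C of CT8 included. Cps1 had 1240 CPM in that library, against 663 and 716 CPM in libraries A and B of CT8, both below its CT16 mean. Ass1 had 128 CPM there, against 80.6 and 63.2 CPM, and Cth 737 CPM, against 363 and 417 CPM. Slc25a15 had 163 CPM there, against 140 and 165 CPM. Without library C the log2 differences of Ass1, Cps1, Slc25a15 and Cth were 0.56, 0.50, 0.37 and 0.33. When library C of CT8 was left out, 576 of all 9258 genes were higher and 552 lower. Among them, 9 peroxisomal genes were higher, and 17 genes of urea and amino acid metabolism were higher and 1 lower. The counts of these lists were 7 higher and 1 lower, and 16 higher and 1 lower, without library A of CT16. Of all 9258 genes, 333 were then higher and 316 lower. Bcat2, the branched-chain aminotransferase, was the lower member (-0.64 ± 0.19, adjusted p = 0.147, edgeR).

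The largest differences among higher genes were in male-biased and related liver transcripts, and they grew over the 2 days. Hsd3b5, a male-specific hydroxysteroid dehydrogenase with close relatives that may share its reads, had means of 22.7 ± 19, 135 ± 73.8 and 188 ± 11.4 CPM at CT8, CT24 and CT40, against 22 ± 7.94, 27.6 ± 19.4 and 37.2 ± 47.9 CPM at CT0, CT16 and CT32. Its log2 difference was 2.10 ± 0.55 (adjusted p = 0.0922, edgeR), and 1.41 with the hour in the model. CT8 was below CT16 and CT32, with 32.2, 35.1 and 0.748 CPM in libraries A, B and C, so that Hsd3b5 did not swing 3 times. Mup21, a major urinary protein of a family of near-identical genes, had means of 42.8, 201 and 447 CPM at CT8, CT24 and CT40, against 46.4, 53.5 and 122 CPM at CT0, CT16 and CT32, and its log2 difference of 1.75 ± 0.49 was 0.81 with the hour in the model. Cyp4a12b, a male-biased fatty acid hydroxylase with near-identical relatives, and Cyp7b1, an oxysterol hydroxylase, differed by 1.65 ± 0.42 and 1.33 ± 0.35 (adjusted p = 0.0814 and 0.0868, edgeR), with hour-adjusted values of 1.11 and 0.86. Of the 28 tested growth hormone, STAT5 and male-biased genes, 6 were higher and 0 lower (median 0.36, 21 above 0). By the definition above, which uses log2 CPM, 0 of the 28 were repeated swings to higher levels at CT8, CT24 and CT40, and 1 to lower levels. The CPM means of Selenbp2 at CT8, CT24 and CT40 nevertheless lay above the other 3. The average of the list over CT8 was the lowest of the 12 time points (-0.58 on the log2 scale of the list profile), with library C at -1.92. Without that library the list had 10 higher genes at 0.05, 15 higher and 2 lower at 0.2, and a median of 0.46.

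Further large differences were in transporters and enzymes. Slc22a7, an organic anion transporter of the hepatocyte, had means of 16.6 ± 16.2, 34.6 ± 16.3 and 60.7 ± 21.4 CPM at CT8, CT24 and CT40, against 11.1 ± 4.77, 15.5 ± 6.28 and 19.4 ± 6.9 CPM at CT0, CT16 and CT32 (log2 difference 1.35 ± 0.37, adjusted p = 0.103, edgeR), with 0.561 CPM in library C of CT8. Tst, the thiosulfate sulfurtransferase of mitochondria, had means of 44.2 ± 31.3, 46.9 ± 10.3 and 126 ± 65.9 CPM at CT8, CT24 and CT40, against 31.2 ± 4.27, 35.8 ± 8.08 and 37.9 ± 9.62 CPM at CT0, CT16 and CT32, so that CT40 alone carried much of its log2 difference of 1.11 ± 0.28 (adjusted p = 0.0814, edgeR). Lama3, a laminin chain, had means of 3.91 ± 3.27, 8.19 ± 2.36 and 9.83 ± 1.47 CPM at CT8, CT24 and CT40, against 2.86 ± 0.788, 3.28 ± 1.01 and 4.27 ± 1.004 CPM at CT0, CT16 and CT32. In Lama3, 10 of 11 libraries exceeded all 12 of the other set, the exception being library C of CT8 at 0.187 CPM, and the difference was 1.14 ± 0.29 (adjusted p = 0.0853, edgeR), or 1.29 without that library (adjusted p = 9.5e-04, edgeR). Myc, the growth-promoting transcription factor, ran the other way in time, with means of 13 ± 9.78, 15.7 ± 15 and 7.45 ± 7.29 CPM at CT8, CT24 and CT40, against 3.5 ± 0.395, 4.14 ± 2.51 and 6.44 ± 3.61 CPM at CT0, CT16 and CT32 (log2 difference 1.40 ± 0.42, adjusted p = 0.147, edgeR). The highest of the 3 Myc values at CT8 was in library C (23.7 CPM), against 4.64 and 10.5 CPM in libraries A and B, and without library C the difference of Myc was 1.24 (adjusted p = 0.115, edgeR). Slc13a2, a dicarboxylate transporter, had 5.05 CPM at CT24 but 2.09 and 2.73 CPM at CT8 and CT40, against 1.48 to 1.65 CPM in the other set.

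Acute phase and inflammatory transcripts led the lower genes by size, and single libraries set much of that size. Of 30 tested genes of the acute phase and complement list, 7 were lower and 0 higher at 0.2 (median -0.49, 29 below 0). The 7 were Lcn2, Mt2, Cp, Mt1, Il6ra, Il1r1 and Cfb, so the list holds metallothioneins and cytokine receptors beside secreted proteins. Lcn2, Mt2 and Mt1 are also counted among the glucocorticoid targets below. Without library C of CT8 the acute phase and complement list had 11 lower genes. Without library A of CT16 it had 4 and a median of -0.22, and without library A of CT32 it had 7 and a median of -0.42. Of all 9258 genes, 552, 316 and 200 were lower without these libraries in the same order. Mt2, a metal-binding metallothionein, had means of 232 ± 222, 112 ± 118 and 28.3 ± 15.7 CPM at CT8, CT24 and CT40, against 288 ± 312, 3001 ± 4163 and 189 ± 282 CPM at CT0, CT16 and CT32, with 9108 CPM in library A of CT16 alone. Its log2 difference of -3.34 ± 0.96 (adjusted p = 0.12, edgeR) was -1.92 without that library (adjusted p = 0.227, edgeR). Lcn2, which binds bacterial siderophores, had 4939 CPM in library A of CT16 and 1749 CPM in library A of CT32. The difference of Lcn2, -2.67 ± 0.75 (adjusted p = 0.112, edgeR), was -1.57 without the first of these (adjusted p = 0.194, edgeR). Gbp2, an interferon-induced GTPase, had 152 CPM in library A of CT32 and a time point mean of at most 10.6 CPM at the 5 other times, and its difference of -1.92 ± 0.63 (adjusted p = 0.171, edgeR) was -0.68 without it (adjusted p = 0.40, edgeR). Socs1, Igtp and H2-DMb1, induced by interferon or, for the last, of a gene family that may share reads, had 42.2, 1626 and 109 CPM in the same library. Without that library their log2 differences were -0.64, -0.49 and -0.68, and none was called (adjusted p = 0.345, 0.377 and 0.242, edgeR). Igtp, like Gbp2, Mt2 and Lcn2, did not keep its 3 means of CT8, CT24 and CT40 below the other 3. Socs1 had 1.52 ± 0.464, 1.67 ± 0.494 and 1.24 ± 0.657 CPM at CT8, CT24 and CT40, against 2.47 ± 1.54, 2.24 ± 1.39 and 12.1 ± 20.1 CPM at CT0, CT16 and CT32. This was a small step in the means beside the single high library, and 0 of the 11 Socs1 libraries lay below all 12 of the other set.

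Markers of macrophages leaned the same way as the lower immune genes. The 13 Kupffer cell and macrophage markers summed to 644 to 1387 CPM (median 930.3) at CT8, CT24 and CT40, against 614 to 4230.3 CPM (median 1030.2) at CT0, CT16 and CT32. Their median log2 difference was -0.34, 12 of 13 were below 0, none passed 0.2, and without library A of CT32 their median was -0.026. The defining markers Clec4f, C1qa and Cd5l had counts in every library. The part of these cells in the lower immune genes was not tested, and in bulk tissue fewer cells of a type and less RNA per cell cannot be told apart. Endothelial markers had a median of -0.04 and stellate cell markers of -0.25, with none of 13 and none of 9 called. Called lower without library C of CT8 were 2 Kupffer cell and macrophage markers and 1 endothelial marker, and without library A of CT16 2 and 1 of these and 1 stellate cell marker. Of all 9258 genes, 552 were lower without the first library and 316 without the second. The 4 cholangiocyte markers, the 3 lymphocyte and neutrophil markers and the 1 red blood cell marker tested had none called either (medians -0.085, -0.47 and 0.49), but the red blood cell marker was called higher without library C of CT8, at 0.61. Of markers from outside the liver, the 1 pancreas marker measured reached at most 4.67 CPM. The 2 fat and muscle markers measured summed to a median of 1.87 CPM at CT8, CT24 and CT40, against 2.02 CPM at CT0, CT16 and CT32. They reached 37.4 CPM in library B of CT32 and 33.2 CPM in library A of CT32.

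Chaperones of the endoplasmic reticulum, where secreted proteins fold, leaned the same way. Of 28, 3 were lower and 0 higher at 0.2 (median -0.14). Pdia4, a disulfide isomerase, had means of 50.1 ± 21.4, 50.8 ± 7.67 and 48.1 ± 6.18 CPM at CT8, CT24 and CT40, against 62.7 ± 2.32, 87.7 ± 23.2 and 64.3 ± 11.6 CPM at CT0, CT16 and CT32 (log2 difference -0.54 ± 0.14, adjusted p = 0.0814, edgeR). Derl3, of the machinery that exports misfolded proteins, and Sdf2l1, a chaperone cofactor, differed by -1.21 ± 0.35 and -0.90 ± 0.31 (adjusted p = 0.13 and 0.196, edgeR). CT16 had the highest mean of the 6 time points for all 3. The list average was highest in library D of CT16 (0.83 on the log2 scale of the list profile, against 0.35 in library A). Without library A 3 genes of the list were lower, when 316 of all 9258 genes were lower. That count does not show what rests on library D, without which no count of the list is given. Among 25 immediate early genes, Ier3 and Junb were lower (-0.93 ± 0.24 and -0.87 ± 0.26, adjusted p = 0.0853 and 0.147, edgeR) and Myc and Dusp1, a phosphatase of MAP kinases, higher (0.70 ± 0.22 for Dusp1, adjusted p = 0.16, edgeR). Of these immediate early genes 2 were higher and 7 lower without library C of CT8, and 2 and 4 without library A of CT32. Over all 9258 genes the counts were then 576 and 552, and 230 and 200.

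Other pathways held few called genes with all 23 libraries. Several lists had more without library C of CT8, when 576 of all 9258 genes were higher and 552 lower. Without library A of CT16, 333 of all genes were higher and 316 lower. None of the 35 tested genes of insulin, AKT and FOXO signalling was called (median 0.02), against 1 higher and 1 lower without library C of CT8 and 2 and 1 without library A of CT16. Akt1 differed by -0.19 ± 0.08 and Akt2 by -0.26 ± 0.11 (adjusted p = 0.295 and 0.291, edgeR). None of 23 core clock and clock output genes was called (median -0.01), or 1 higher and 1 lower without library C of CT8, Arntl having 6.29 ± 3.09, 7.14 ± 0.908 and 6.92 ± 1.4 CPM at CT8, CT24 and CT40, against 3.26 ± 1.54, 6.95 ± 2.86 and 5.74 ± 0.809 CPM at CT0, CT16 and CT32 (adjusted p = 0.576, edgeR). None of 23 integrated stress response genes was called (median -0.14), although 19 were below 0, and without library C of CT8 9 of the 23 were lower (median -0.22). Fatty acid synthesis had 1 higher gene of 31, Acss2, the cytosolic acetyl coenzyme A synthetase, with means of 103 ± 56.2, 358 ± 131 and 238 ± 82.2 CPM at CT8, CT24 and CT40, against 130.4 ± 25.2, 102 ± 45.8 and 157 ± 52.1 CPM at CT0, CT16 and CT32 (log2 difference 0.92 ± 0.28, adjusted p = 0.147, edgeR), while 29 of the 31 were above 0 (median 0.22). Of the 31, 12 were higher without library C of CT8 and 3 without library A of CT16. Targets of PPAR alpha in fat oxidation had 1 higher gene of 42, Etfa, which passes electrons from fat oxidation to the respiratory chain (median of the list -0.03), and 3 higher and 4 lower without library C of CT8. Of 21 glucocorticoid targets, Dusp1 was higher and Lcn2, Mt2 and Mt1 were lower (median 0.11). Without library C of CT8 this list had 1 higher and 6 lower genes and its median was -0.17, and without library A of CT16 it had 3 higher genes and 1 lower (median 0.16). Cholesterol synthesis and sterol handling had 3 higher of 33, Cyp7b1, Cyp27a1 and Scap, and 1 lower. Leaving out library C of CT8 gave 7 higher and 2 lower.

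Protein, RNA and foreign compound handling gave 1 to 3 called genes in a direction. The cytosolic ribosome had 1 higher gene of 74, Rplp1 (0.23 ± 0.07, adjusted p = 0.163, edgeR), and a median of -0.01. The proteasome had 3 higher and 1 lower of 47, and the spliceosome list 1 higher, Snrpg, and 3 lower of 59. Cytochrome P450 families 1 to 3 had 1 higher gene of 29, Cyp1a2, which oxidises caffeine and other foreign compounds (0.46 ± 0.15, adjusted p = 0.163, edgeR). NRF2 and glutathione genes had 2 higher, Prdx6 and Gstk1 (0.38 ± 0.09 and 0.34 ± 0.08, adjusted p = 0.0814 for both, edgeR), and 1 lower of 43. Without library C of CT8, when 576 genes were higher and 552 lower in all, the counts of higher and lower genes were 1 and 4 for the ribosome, 7 and 1 for the proteasome, 1 and 5 for the spliceosome, 8 and 2 for the P450 families, and 6 and 9 for NRF2 and glutathione. Without library A of CT16 they were 3 and 2, 5 and 2, 2 and 3, 2 and 0, and 4 and 2 in the same order, and without library A of CT32 1 and 2, 5 and 1, 2 and 3, 1 and 0, and 3 and 1. Over all genes the counts were 333 and 316 without the first of these libraries, and 230 and 200 without the second. Ddt, a tautomerase outside these lists, was among the 10 higher genes with the smallest p, with means of 1296 ± 247, 1241 ± 64.1 and 1349 ± 96.2 CPM at CT8, CT24 and CT40, against 954 ± 14.4, 930.1 ± 99.9 and 1149 ± 139 CPM at CT0, CT16 and CT32 (log2 difference 0.36 ± 0.08, adjusted p = 0.0814, edgeR).

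The same contrast was run in the other genotypes. With the phase of the day as a term, 225 higher and 179 lower genes were counted in Per1,2-/- livers at an adjusted p under 0.2, against 66 and 57 in WT livers and 2 and 0 in Bmal1-/- livers. At 0.05 the counts were 0 and 0 in Per1,2-/-, 8 and 6 in WT and 1 and 0 in Bmal1-/- livers. The order of Per1,2-/- and WT livers thus depended on the threshold. The 192 higher genes had a median difference of 0.024 in WT and -0.041 in Bmal1-/- livers, and the 144 lower genes of -0.058 in WT and 0.0047 in Bmal1-/- livers. The difference between Per1,2-/- and WT livers was tested in 1 model and passed 0.05 for 2 genes (0.0216% of 9258), and that between Per1,2-/- and Bmal1-/- livers for 5 (0.059% of 8473). At an unadjusted p under 0.05 it held for 819 genes of 9258 in the first test and 1022 of 8473 in the second, and DESeq2 passed 11 genes in the first and 37 in the second at 0.05. Genotype and sequencing table cannot be told apart, but each difference was taken within a table.

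Scnm1 was the gene that passed in both tests. Its log2 difference between the sets was -0.46 in Per1,2-/-, 0.30 in WT and 0.25 in Bmal1-/- livers in these models, a gap of -0.77 to WT (adjusted p = 0.00962, edgeR) and -0.72 to Bmal1-/- (adjusted p = 0.00945, edgeR). Samd4b, an RNA-binding protein, had -0.37 in Per1,2-/- and 0.15 in WT livers (gap -0.51, adjusted p = 0.0127, edgeR). Its means in Per1,2-/- livers were 40.4 ± 5.68, 44 ± 2.93 and 43 ± 2.36 CPM at CT8, CT24 and CT40, against 66.5 ± 7.95, 54.9 ± 6.87 and 44.6 ± 4.73 CPM at CT0, CT16 and CT32, with CT32 close to CT24. Pim1, Stk40 and Fhit differed from Bmal1-/- livers by -1.24, -0.67 and 0.88 (adjusted p = 0.00945, 0.0231 and 0.0348, edgeR), as did 2300009A05Rik by 0.46 (adjusted p = 0.0348, edgeR). In Bmal1-/- livers Fhit ranged from 8.07 to 15.1 CPM at CT8, CT24 and CT40, against 7.13 to 15.3 CPM at CT0, CT16 and CT32, so the sets overlapped throughout.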

How the data were processed

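Counts of unique molecules per gene in Per1,2-/- livers were used, with WT and Bmal1-/- counts for the genotype differences. Per the submitters' processing notes and the paper's methods, the authors used cutadapt for trimming, STAR for mapping to mm10 and HTSeq for counting over RefSeq genes. They deposited these raw counts beside values normalized with DESeq2. The 94 normalized columns were not used. Libraries were grouped by the time in their labels. Here 9258 genes with at least 1 count in every WT and Per1,2-/- library, the study's filter, were tested with edgeR 4.0.16 (quasi-likelihood F-test, TMM, R 4.3.3) and Benjamini-Hochberg adjustment over all genes, called under 0.05, and under 0.2 as an added setting. DESeq2 1.42.0 was an alternative. Differences between genotypes were fitted with genotype by phase of the day. A pseudocount of 1 CPM entered averages of log2 values only.

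The comparison, gene lists and tests were chosen with earlier results of these data known. In each direction the 10 genes with the smallest p and the 10 with the largest change were named, with up to 4 called members of each list and the genes of the genotype tests. As none stayed called without each time point, the 6 with the smallest p were given in full. Other genes named with values were chosen after their values were seen. Alternatives were normalizations, filters, models and left-out letters or time points, and, added after seeing the data, the 0.2 threshold, left-out libraries and combinations. Libraries of 1 time point differed beyond sampling noise (lowest chi-square per degree of freedom 3.5). The tests were checked on simulated data. Coordinates and promoters came from RefSeq's GRCm38.p6, the build of mm10, matched by symbol (75 of 95 named genes had a promoter window), and Python 3.11.15 with Matplotlib 3.10.9 drew the figures. Values of some called genes are not reported here. Totals per library, given in the report, limit the precision of genes with few counts.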

Additional observations from a re-analysis of the deposited data

Results flagged for a closer look

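In groups of 4 libraries, 1 library lay far from the other 3 of its time point for 3 of the 12 genes given in full. Fam53a had 30.1 CPM in library B of CT32, against 36.2 to 37.2 CPM in the other 3. Pim1 had 20.5 CPM in library A of CT32, against 7.81 to 9.44 CPM, and Map2k7 had 48.5 CPM in library B of CT0, against 36.3 to 37.8 CPM. Of the 60 groups looked at, chance gives about 1 in 20 such a library.

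The difference between the 2 sets of time points was unlike that of another genotype for 6 genes, by edgeR's test of the difference itself. For Scnm1 the log2 difference in Per1,2-/- livers minus that in WT livers was -0.77, and minus that in Bmal1-/- livers -0.72. For Samd4b it was -0.51 against WT livers. Against Bmal1-/- livers it was -1.24 for Pim1, -0.67 for Stk40, 0.88 for Fhit and 0.46 for 2300009A05Rik.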

How the results depend on the processing

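At an adjusted p under 0.05 the count of genes higher and lower at CT8, CT24 and CT40 was 0 and 0, and it stayed so with RLE size factors, 3 other filters, the replicate or phase block, the hour as a term, sums per time point, and without CT0, CT16, CT24 or CT40. It was 74 and 26 with DESeq2. With all 46 libraries and each of the 12 time points as a level, it was 96 and 62. That model takes its error only from the spread between libraries of 1 time point. The count was 2 and 1 with a trend and a 16-hour cosine over the same 46 libraries. It was 214 and 107 without CT8, 222 and 130 without CT32, and 684 and 494 without both. Without library C of CT8 and library A of CT32 it was 159 and 86. With the hour as a term and without library C of CT8 it was 1 and 0. Leaving out each letter or library in turn gave 0 to 131 higher and 0 to 62 lower genes. At 0.2 the counts of 192 and 144 became 265 and 214 with DESeq2. They were 436 and 478 with all 46 libraries and the 12 time points as levels. They were 0 and 0 with sums per time point, and 0 and 0 with the hour as a term. A trend and a cosine over the 46 libraries gave 97 and 129. The counts were 1 and 0 without CT0, 715 and 750 without CT8, and 2 and 0 without CT24. They were 780 and 669 without CT32, and 0 and 0 without CT40. Without the 2 libraries under 2000000 counts they were 91 and 58. They were 1353 and 1425 without CT8 and CT32, and 665 and 610 without libraries C of CT8 and A of CT32. Leaving out each letter or library gave 0 to 576 higher and 0 to 552 lower genes, with 0 without letter B or D. With the replicate letter as a block the counts at 0.2 were 129 and 78. The letters share only a letter between time points (5 of 55 same-letter pairs correlated over 0.1, and 3 of 23 libraries were nearest to their own letter). Genes unlike WT numbered 2, against 1 without the phase term, 11 with DESeq2 and 0 to 2 without a letter. Genes unlike Bmal1-/- numbered 5, against 3, 37 and 0 to 49. The causes were not tested. Of 4174 values recomputed for the 87 named genes under 0.2, 0 changed sign, and of 384 values of other named genes 18 did. Of 1296 medians recomputed for 27 lists, 170 moved by more than their jackknife error over the letters.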
